A study of Mus musculus with 12 samples.

Results

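The genes examined were 43 mouse genes of chemokines and chemokine receptors, 27 ligands and 16 receptors, picked by gene symbol from the 55092 features of 1 table of FPKM, the fragments of a gene scaled by the length of its exons and by the depth of the library. A further row with the symbol Ccl19 lies on an unplaced scaffold, was listed at 0 in all 12 libraries and was set aside. The libraries came from the abdominal aorta of 12 males, 3 for each of 4 groups, and were made to ask how the loss of cellular communication network factor 2 (CCN2) from smooth muscle cells (SMCs) alters the vessel wall with and without angiotensin II (Ang II). CFS and CFA are CCN2fl/fl mice, which carry floxed Ccn2 and no Cre, infused with saline or with Ang II at 500 ng/kg/min. CSS and CSA are CCN2SMC∆ mice, which carry floxed Ccn2 and Myh11-Cre-ERT2, infused with saline or with the same dose of Ang II. All 4 groups were given 5 doses of tamoxifen at 8 weeks of age, rested for 2 weeks and then carried a mini-osmotic pump until day 7. The Myh11 promoter drives the Cre in SMCs, and since the controls had tamoxifen but no Cre, an effect of Cre itself and the loss of CCN2 cannot be told apart.

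Chemokines are small secreted proteins that set up gradients along which leukocytes migrate, and they are named CC, CXC or CX3C by the spacing of their first cysteines. Most of their receptors couple to G proteins on leukocytes, whereas the atypical receptors (Ackr genes) bind chemokines without G protein signaling and take them up or carry them across endothelium. In the aortic wall, SMCs, fibroblasts, endothelial cells and macrophages can all secrete ligands, while most signaling receptors are found on leukocytes, and the entry of monocytes through CCL2 and CCR2 is a known step of Ang II–driven aneurysm in mice.

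Between 14558586 and 23107811 fragments were recovered per mouse. Ccn2, the targeted gene, measured 1013, 1105 and 564 FPKM in CFA and 255, 331 and 399 in CSA (log2 fold change -1.41, two-sided exact permutation p = 0.1, the smallest that 3 against 3 allow), and the saline groups overlapped (log2 fold change -0.40, exact permutation p = 0.4). Counts of members are given with and without CSA mouse 03 and CFA mouse 72. By distance within its group, only CSA mouse 03 stood apart. The 3 CSA libraries were 0.505 to 1.21 apart (root mean square difference of log2(FPKM + 0.1)), with mouse 03 far from the other two, whereas the pairs within the other groups were 0.586 to 0.743 apart. CFA mouse 72 was 0.712 and 0.743 from CFA mice 71 and 74. It was picked out by the members' own values, as the highest of the 3 CFA mice for 30 of the 38 tested members. Calls gained without it are not independent of that choice. Mice are the units of all tests, 3 a group. The limma p-values given below rest on a single estimate of spread per gene, shared by all groups. They therefore do not measure the spread of the compared groups alone.

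Under Ang II, aortas of CCN2SMC∆ mice held far more chemokine and receptor transcript than those of CCN2fl/fl mice. Ligands that attract monocytes (Ccl2, Ccl7, Ccl12), neutrophils (Cxcl1, Cxcl2, Cxcl3, Cxcl5) and effector T cells (Cxcl9, Cxcl10) rose together with Ccr2, Cxcr2 and Cxcr3, the receptors that read them. The homeostatic ligand Cxcl12 and its receptor Cxcr4 rose as well. Ccl24 fell, and Ccl11, Cx3cl1, Pf4 and the atypical receptors Ackr2 and Ccrl2 showed no change past the test. A gene is called up- or downregulated here where its adjusted p is under 0.05 and its log2 fold change exceeds 1.5 in size, tested with limma on log2(FPKM + 0.1), a scale that understates the change of low genes.

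Of the 43 genes, 38 reached 1 FPKM in at least 3 libraries and were tested, and 28 were upregulated and 1 was downregulated in CSA against CFA, where 8.95% of the 14676 tested features were upregulated and 8.27% downregulated. The filter itself favoured genes high in CSA, since 12 of the 38 (Ccl3, Ccl4, Cxcl2, Cxcl3, Cxcl5, Cxcr2, Cxcr3, Ccr3, Ccl17, Ccl22, Ccr7 and Cxcr6) passed only through the CSA mice. Among the 26 that passed without them, 17 were upregulated and 1 downregulated, beside 4.54% and 9.01% of the 13470 features that passed in the same way, and their median log2 fold change was 2.71, beside -0.10 over those features. When all 43 were fitted without a filter, 29 were upregulated and 1 downregulated, beside 5.82% and 4.42% of 31190 features. The 5 genes not tested were Ccl19, Ccl20, Ccr6, Cxcr5 and Ackr4. In 30 of the 38, every CSA mouse lay above every CFA mouse, and in 2 (Ccl24 and Ackr3) every CSA mouse lay below, beside 23.4% and 25.1% of the tested features. Without CFA mouse 72 there were 30 upregulated members, without CSA mouse 03 there were 28, and without both 29, with 1 downregulated in each.

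**Figure D1:**
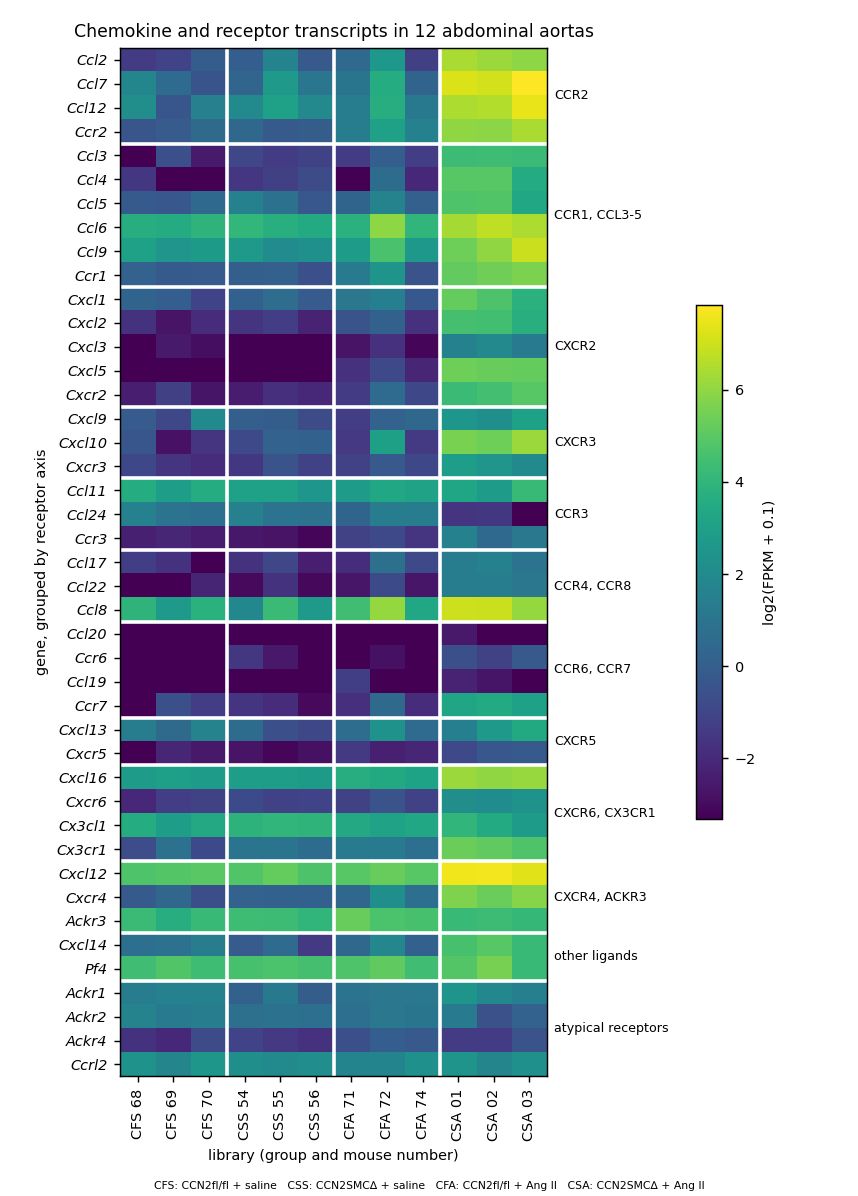
Levels of the 43 genes as log2(FPKM + 0.1) (color) in each of the 12 libraries (columns, by group and mouse number), with genes in rows by receptor axis. The CSA columns are the brightest in most rows, Ccl24 is darker there than in the other groups, and CFA mouse 72 is brighter than the other CFA mice in many rows.

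CCR2 is the receptor that classical monocytes use to leave the marrow and enter tissue, and CCL2, CCL7 and CCL12 are its ligands in the mouse. Ccl2 (ENSMUSG00000035385, chromosome 11, 82035571 to 82037453 on GRCm38) measured 1.29, 6.13 and 0.332 FPKM in CFA and 85.8, 70.8 and 61.6 in CSA (log2 fold change 5.54, SE 0.82, Benjamini-Hochberg adjusted p = 0.000313 from limma). The highest CFA value belonged to mouse 72 and was far below every CSA mouse, and the 6 saline mice measured 0.285 to 3.13. Ccl7 (ENSMUSG00000035373, chromosome 11, 82045712 to 82047525) measured 1.95, 11.9 and 1.12 in CFA and 152, 135 and 229 in CSA (log2 fold change 5.75, SE 0.86, limma adjusted p = 0.000317). Ccl12 (ENSMUSG00000035352, chromosome 11, 82101845 to 82103400) measured 2.48, 12.3 and 2.196 in CFA and 87.8, 93.5 and 178 in CSA (log2 fold change 4.76, SE 0.74, limma adjusted p = 0.000413). The saline mice lay near CFA for both, at 0.651 to 6.26 for Ccl7 and 0.697 to 8.24 for Ccl12. For Ccl7 and Ccl12 the highest mouse was CSA 03, which had the lowest Ccl2 of its group. Ccr2 (ENSMUSG00000049103, chromosome 9, 124101950 to 124113557) measured 2.45, 8.31 and 2.87 in CFA and 62.8, 59.2 and 85.4 in CSA, a 17.1-fold difference (log2 fold change 4.10, SE 0.41, limma adjusted p = 2.08e-05).

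Of 10 monocyte and macrophage markers, 9 were upregulated too, 7 of them among the 8 that passed the filter outside CSA, and their summed FPKM was 242 to 479.7 in CFA, with mouse 72 at 479.7, and 1616 to 1796 in CSA. Their part in the rise of these genes was not tested, and in bulk tissue more cells of a type and more RNA per cell cannot be told apart. Beside this and the marker counts below, 8.95% of all tested features were upregulated and 8.27% downregulated. Among features that passed the filter outside CSA the shares were 4.54% and 9.01%.

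The second group holds CCR1 and its ligands CCL6 and CCL9, with CCL3, CCL4 and CCL5, which macrophages and activated lymphocytes release and which act on monocytes, T cells and NK cells. All 6 genes were upregulated, beside 8.95% of all tested features, and Ccl3 and Ccl4 passed the filter only through the CSA mice. Ccl3 measured 0.2996, 0.923 and 0.308 FPKM in CFA and 20.3, 20.6 and 19.6 in CSA (log2 fold change 5.20, SE 0.60, limma adjusted p = 5.88e-05). Ccl4 measured 0, 1.43 and 0.143 in CFA and 30.8, 30.7 and 11.6 in CSA (log2 fold change 6.06, SE 0.89, limma adjusted p = 0.00028). Ccl3 was thus nearly level across the CSA mice, while Ccl4 in mouse 03 was below the other two. Ccl5 showed the same order, with 26.9, 27.5 and 9.99 in CSA against 1.1, 3.09 and 0.983 in CFA (log2 fold change 3.61, SE 0.57, limma adjusted p = 0.000473). Ccl6 and Ccl9, which are made by myeloid cells at rest, were the most abundant of the 5 ligands in CFA, and they moved least. Ccl6 measured 13.7, 61.9 and 16.3 in CFA and 80.7, 108 and 88.4 in CSA (log2 fold change 1.93, SE 0.45, limma adjusted p = 0.00576), and Ccl9 6.81, 24.7 and 6.15 and 42.04, 62.7 and 122 (log2 fold change 2.74, SE 0.51, limma adjusted p = 0.00131). CFA mouse 72 alone came near the CSA range for Ccl6. Ccr1 measured 2.398, 5.42 and 0.633 in CFA and 35.97, 42.6 and 49.1 in CSA (log2 fold change 4.29, SE 0.56, limma adjusted p = 0.000127).

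CXCR2 is the main chemokine receptor of neutrophils, and CXCL1, CXCL2, CXCL3 and CXCL5 bind it. All 5 genes were upregulated, beside 8.95% of all tested features. Of the 5, Cxcl2, Cxcl3, Cxcl5 and Cxcr2 passed the filter only through the CSA mice, which favours genes high there. With a pseudocount of 0.1 and all mice Cxcl5 was the member of largest change. Over the alternative settings its log2 fold change ran from 4.99 to 7.26. That of Ccl7 ran from 5.08 to 6.73 and that of Ccl4 from 4.05 to 7.63, so Cxcl5 did not lead in all. Cxcl5 (ENSMUSG00000029371, chromosome 5, 90759360 to 90761624) was listed at 0 in all 6 saline mice, at 0.197, 0.455 and 0.127 FPKM in CFA and at 41.5, 37.8 and 36.9 in CSA (log2 fold change 6.86, SE 0.37, Benjamini-Hochberg adjusted p = 6.13e-07 from limma). These values came from 8, 18 and 5 fragments in the CFA libraries and 1570, 1492 and 1054 in the CSA libraries. The 6 saline values at 0 add no spread to the shared estimate behind the SE of Cxcl5. With 3 fragments taken as the limit of a 0 in each library, the CSA level was at least 436-fold higher than the CFS level and at least 469-fold higher than the CSS level. Cxcl1 measured 2.03, 2.69 and 0.755 in CFA and 37.04, 26.3 and 13.8 in CSA (log2 fold change 3.80, SE 0.51, limma adjusted p = 0.000168). Cxcl2 measured 0.644, 1.003 and 0.205 in CFA and 23.6, 21.8 and 12.8 in CSA (log2 fold change 4.90, SE 0.50, limma adjusted p = 2.44e-05). Both were lowest in mouse 03 among the CSA mice, whereas Cxcl5 differed little between the 3. Cxcl3 stayed low, at 0.0525, 0.202 and 0.0135 in CFA and 2.87, 3.77 and 2.24 in CSA (log2 fold change 4.11, SE 0.54, limma adjusted p = 0.000143). Cxcr2 measured 0.301, 1.41 and 0.433 in CFA and 19.4, 22.6 and 30.3 in CSA (log2 fold change 5.12, SE 0.52, limma adjusted p = 2.38e-05). Of 10 neutrophil markers, 8 were tested, 5 of them only through the CSA mice, and all 8 were upregulated, with summed FPKM of 10.7 to 26.8 in CFA and 507 to 551 in CSA. Their part in the values was not tested, and Ly6g, a defining neutrophil marker, was listed at 0.6797, 0 and 0 in CSA.

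Cxcl1, Cxcl2 and Cxcl3 lie in 1 cluster on chromosome 5 with Pf4, a platelet and macrophage ligand that did not change past the test. The 250 bases before the RefSeq start of each are shown on GRCm38.p6, 5′ to 3′ on the strand of the gene, to set the called neighbours beside the one not called. The 4 were picked after their values and motifs were seen. Capitals mark a form of the NF-κB motif (GGGAA, any 3 bases, CC) on either strand, and adjoining capitals are overlapping matches. The last bases of the Cxcl1 and Cxcl2 stretches lie inside the GENCODE gene.
Cxcl3, chr5:90785851-90786100, plus strand: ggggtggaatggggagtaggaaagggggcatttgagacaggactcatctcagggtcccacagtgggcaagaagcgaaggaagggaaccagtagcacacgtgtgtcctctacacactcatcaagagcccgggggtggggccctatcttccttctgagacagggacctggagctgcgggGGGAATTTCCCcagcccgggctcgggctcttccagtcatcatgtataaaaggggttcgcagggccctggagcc
Cxcl1, chr5:90890995-90891244, plus strand: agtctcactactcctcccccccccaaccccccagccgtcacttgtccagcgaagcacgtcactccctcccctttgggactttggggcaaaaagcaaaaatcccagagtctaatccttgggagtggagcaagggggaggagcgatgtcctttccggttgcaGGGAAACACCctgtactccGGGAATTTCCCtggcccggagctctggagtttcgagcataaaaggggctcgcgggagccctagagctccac
Cxcl2, chr5:90903649-90903898, plus strand: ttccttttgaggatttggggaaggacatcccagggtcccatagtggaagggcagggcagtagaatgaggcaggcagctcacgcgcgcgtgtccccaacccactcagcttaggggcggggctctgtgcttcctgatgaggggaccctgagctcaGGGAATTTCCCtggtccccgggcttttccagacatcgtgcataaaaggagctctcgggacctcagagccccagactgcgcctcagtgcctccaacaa
Pf4, chr5:90772185-90772434, plus strand: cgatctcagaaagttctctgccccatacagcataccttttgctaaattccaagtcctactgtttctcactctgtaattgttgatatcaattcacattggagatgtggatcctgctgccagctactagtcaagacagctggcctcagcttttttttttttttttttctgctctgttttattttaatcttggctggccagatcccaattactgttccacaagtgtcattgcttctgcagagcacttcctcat

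Cxcl3 has an overlapping pair of matches from base -73 to base -63 before its start, Cxcl1 from -71 to -61 and Cxcl2 from -97 to -87. Cxcl1 holds a further match before its pair, and the Pf4 stretch holds none, which says only that these letters are not in that window. No difference between the genes is read from these matches.

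CXCR3 is carried by effector T cells and NK cells, and CXCL9 and CXCL10 are its interferon-induced ligands. Cxcl10 (ENSMUSG00000034855, chromosome 5, 92346638 to 92348889) measured 0.265, 8.14 and 0.272 FPKM in CFA and 48.2, 41.2 and 71.7 in CSA (log2 fold change 5.66, SE 1.05, limma adjusted p = 0.00134). CFA mouse 72 was far above the other CFA mice and still below every CSA mouse. Over the alternative settings the log2 fold change of Cxcl10 ran from 4.44 to 7.15. Cxcl9 (ENSMUSG00000029417, chromosome 5, 92321347 to 92328079) rose too, to a lower level than Cxcl10, with 0.304, 1.05 and 1.28 in CFA and 5.68, 4.595 and 8.27 in CSA (log2 fold change 2.82, SE 0.67, limma adjusted p = 0.0062). Cxcr3 measured 0.345, 0.762 and 0.436 in CFA and 7.26, 5.501 and 3.88 in CSA (log2 fold change 3.21, SE 0.42, limma adjusted p = 0.000127). Of 10 T cell markers, all 10 passed the filter only through the CSA mice, which favours genes high there, and all 10 were upregulated, with sums of 1.08 to 3.27 FPKM in CFA and 36.1 to 50.7 in CSA, and of 6 NK cell markers 2 were tested, 1 of them only through CSA, and both upregulated, with sums of 0.968 to 2.74 and 12.2 to 15.2. Their part was not tested. The stretches before Cxcl10 and Cxcl9, which share a locus and a class of inducer, are given in the same way, with a form of the interferon-stimulated response element (ISRE; GAAA, any 2 bases, GAAA) also in capitals.
Cxcl10, chr5:92348890-92349139, minus strand: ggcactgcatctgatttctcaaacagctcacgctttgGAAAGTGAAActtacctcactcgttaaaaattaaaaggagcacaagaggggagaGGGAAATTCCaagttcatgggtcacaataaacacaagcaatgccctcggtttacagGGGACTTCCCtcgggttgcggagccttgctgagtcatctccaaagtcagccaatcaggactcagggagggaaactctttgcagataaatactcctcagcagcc
Cxcl9, chr5:92328080-92328329, minus strand: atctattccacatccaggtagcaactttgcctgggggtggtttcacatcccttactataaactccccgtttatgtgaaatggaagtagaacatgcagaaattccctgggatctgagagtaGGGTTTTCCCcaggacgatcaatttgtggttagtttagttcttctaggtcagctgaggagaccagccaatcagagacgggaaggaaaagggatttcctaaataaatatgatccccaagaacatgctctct

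Cxcl10 held 1 ISRE match and 2 NF-κB motif matches, and Cxcl9 held 1 of the latter and no ISRE match of these letters.

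CCR3 is the receptor of eosinophils, and CCL11 and CCL24 are eotaxins that bind it. Here 1 gene fell, 1 rose and 1 did not pass the test. Ccl24 (ENSMUSG00000004814, chromosome 5, 135569937 to 135573049) measured 1.099, 2.51 and 2.55 FPKM in CFA and 0.228, 0.255 and 0 in CSA (log2 fold change -3.16, SE 0.50, Benjamini-Hochberg adjusted p = 0.000512 from limma), the only member downregulated. Its values in the saline mice, 2.88, 1.82 and 1.61 in CFS and 2.83, 1.79 and 1.74 in CSS, overlapped with CFA, and all 3 CSA mice were below the other 9. With a pseudocount of 1 the log2 fold change was -1.36, short of the fold limit. Ccl11 (ENSMUSG00000020676, chromosome 11, 82057823 to 82062955) measured 6.87, 10.02 and 8.41 in CFA and 9.29, 7.06 and 18.3 in CSA (log2 fold change 0.35, 95% CI -0.38 to 1.07, limma adjusted p = 0.427), and without CSA mouse 03 the log2 fold change was -0.04. Ccr3 was low and rose from 0.351, 0.446 and 0.216 in CFA to 2.86, 1.297 and 2.13 in CSA (log2 fold change 2.30, SE 0.45, limma adjusted p = 0.00178), or by 1.18 with a pseudocount of 1. Of 5 eosinophil markers only Siglecf was tested, and it passed the filter only through the CSA mice, with sums over the list of 0.1297 to 0.974 FPKM in CFA and 3.87 to 5.73 in CSA, while Ear1 was listed at 0 in all 12 libraries and Epx in all but 1, at 0.0172 FPKM in CSA mouse 02. The part of eosinophils was not tested.

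CCL17 and CCL22 are ligands of CCR4 and mouse CCL8 of CCR8, receptors of T helper 2 and regulatory T cells. Ccl8 was among the most abundant ligands in every group, at 21.5, 67.1 and 9.88 FPKM in CFA and 128, 122 and 68.3 in CSA (log2 fold change 2.07, SE 0.72, Benjamini-Hochberg adjusted p = 0.0408 from limma). CFA mouse 72 nearly reached CSA mouse 03. The call did not hold in a fit without CFA mouse 71 (adjusted p = 0.102), CFA mouse 74 (0.16, with a log2 fold change of 1.42), CSA mouse 01 (0.0961) or CSA mouse 02 (0.094) by the same limma test, nor with no filter (0.0706) or only these groups in the fit (0.0639). Ccl22 measured 0.0592, 0.466 and 0.0609 in CFA and 2.52, 2.55 and 2.02 in CSA (log2 fold change 3.33, SE 0.66, limma adjusted p = 0.00198). Ccl17 measured 0.179, 1.65 and 0.459 and 2.59, 2.93 and 1.78, and did not pass (log2 fold change 1.94, SE 0.73, limma adjusted p = 0.0543). Without CFA mouse 72 its log2 fold change was 2.65 with a limma adjusted p of 0.0125.

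Of the receptors and ligands of lymphoid tissue, Ccl19, Ccl20, Ccr6 and Cxcr5 were under 1 FPKM in all 12 libraries. Ccr7, which guides dendritic cells and naive T cells to lymph nodes, measured 0.186, 1.36 and 0.167 FPKM in CFA and 9.41, 11.1 and 8.25 in CSA (log2 fold change 4.32, SE 0.79, limma adjusted p = 0.00122). Its ligand Ccl19 was represented by 6 fragments in CFA mouse 71 and 2 and 1 in CSA mice 01 and 02, and by 0 in the other libraries. Ccl20 had 2 fragments in CSA mouse 01 and 0 elsewhere. Ccl19 and Ccl20 were therefore at or below the counting limit of 3 fragments in all libraries but CFA mouse 71. Ccr6, a receptor of B cells and T helper 17 cells, measured 0, 0.0406 and 0 in CFA and 0.552, 0.345 and 0.759 in CSA, and Cxcr5, the B cell follicle receptor, 0.276, 0.099 and 0.127 and 0.458, 0.722 and 0.803. Both were upregulated in the unfiltered fit, with log2 fold changes of 2.49 and 1.54 (limma adjusted p = 0.00238 and 0.0197). Cxcl13, the CXCR5 ligand, varied widely, at 1.48, 5.29 and 1.39 in CFA and 2.698, 6.48 and 10.8 in CSA (log2 fold change 1.33, SE 0.63, limma adjusted p = 0.118). It passed without CFA mouse 72 (1.93, limma adjusted p = 0.0304) and without CSA mouse 01 (1.86, 0.0403). Of 7 B cell markers 2 were tested, both only through CSA, and 1 was upregulated, and the list summed to 1.43 to 2.68 FPKM in CFA and 4.895 to 8.36 in CSA, and the defining marker Ms4a1 was at 0.295, 0.221 and 0.221 in CSA. Of 6 dendritic cell markers 5 were tested, and the 2 upregulated passed only through CSA, with sums of 7.58 to 13.2 in CFA and 12.9 to 14.8 in CSA. The part of either cell type was not tested.

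CXCL16 and CX3CL1 are made as membrane-bound ligands and are read by CXCR6 on T cells and by CX3CR1 on patrolling monocytes and macrophages. Cxcl16 (ENSMUSG00000018920, chromosome 11, 70453983 to 70459984) rose from 12.3, 11.03 and 8.73 FPKM in CFA to 72.2, 62.7 and 69.3 in CSA (log2 fold change 2.67, SE 0.14, Benjamini-Hochberg adjusted p = 4.89e-07 from limma). Cx3cl1, the other ligand, measured 10.5, 8.61 and 9.91 in CFA and 16.4, 11.3 and 6.82 in CSA and did not pass (log2 fold change 0.16, 95% CI -0.45 to 0.78). Without CSA mouse 01 this value was -0.13. Of 6 endothelial markers 1 was upregulated and 1 downregulated, with sums of 169.9 to 367 and 119.9 to 149 FPKM. Both receptors rose. Cxcr6 measured 0.357, 0.634 and 0.366 in CFA and 4.46, 4.27 and 5.103 in CSA (log2 fold change 3.12, SE 0.33, limma adjusted p = 2.99e-05), and Cx3cr1 2.41, 2.37 and 1.57 and 40.4, 34.9 and 26.8 (log2 fold change 3.95, SE 0.38, limma adjusted p = 1.77e-05). The exons of Cxcl16 share 18.3% of their bases with another annotated gene, so that counting could divide some of its fragments.

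CXCL12 is the homeostatic chemokine of stromal cells, CXCR4 its signaling receptor and ACKR3 an atypical receptor that takes it up. Cxcl12 (ENSMUSG00000061353, chromosome 6, 117168535 to 117181367) had the highest mean of the ligands in all 4 groups, although Ccl6 and Ccl8 exceeded it in CFA mouse 72 and Ccl7 and Ccl12 in CSA mouse 03. It rose from 30.7, 37.9 and 30.6 FPKM in CFA to 194, 201 and 162 in CSA (log2 fold change 2.49, SE 0.16, Benjamini-Hochberg adjusted p = 1.31e-06 from limma). In the saline mice it measured 26.7 to 36.6. Cxcr4 (ENSMUSG00000045382, chromosome 1, 128588199 to 128592293) rose from 1.24, 4.64 and 1.57 to 50.9, 38.9 and 56.7 (log2 fold change 4.46, SE 0.41, limma adjusted p = 1.33e-05). Ackr3 (ENSMUSG00000044337, chromosome 1, 90203980 to 90216751) measured 38.3, 25.2 and 23.9 in CFA and 18.04, 20.02 and 17.1 in CSA. All 3 CSA mice were below the CFA mice, with an adjusted p under the threshold but a change short of the fold limit (log2 fold change -0.63, SE 0.21, limma adjusted p = 0.0363). The receptor that takes the ligand up was thus not among the upregulated genes of this axis. SMC markers fell over the same comparison, 8 of 8, from sums of 5589 to 8467 FPKM in CFA to 801 to 961 in CSA, and of 6 fibroblast markers none was called, with sums of 2826 to 3166 and 5006 to 5959. The part of these cells in the levels of Cxcl12 and Ackr3 was not tested.

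Among the remaining genes, Cxcl14, a ligand of epithelia and stroma, rose from 1.28, 3.53 and 1.01 FPKM in CFA to 23.8, 30.7 and 18.4 in CSA (log2 fold change 3.75, SE 0.52, limma adjusted p = 0.000209). Pf4, stored in platelet granules and made by macrophages, measured 27.1, 34.4 and 21.6 in CFA and 28.96, 47.4 and 18.6 in CSA (log2 fold change 0.12, 95% CI -0.53 to 0.76), and its sign turned without CFA mouse 74 or CSA mouse 02. Of 5 platelet and megakaryocyte markers 3 were tested and none was called, with sums of 2.19 to 20.6 FPKM in CFA and 2.502 to 6.32 in CSA, and Gp1bb was listed at 0 in all 12 libraries. The atypical receptors Ackr1, Ackr2 and Ccrl2 were not called either. Ackr1, which carries chemokines across venular endothelium, measured 1.83, 2.05 and 2.15 in CFA and 5.36, 3.59 and 2.69 in CSA (log2 fold change 0.87, SE 0.32, limma adjusted p = 0.0507), and 25.7% of its exonic bases are shared with another gene. Ackr2, a scavenger of inflammatory CC chemokines, measured 1.57, 2.03 and 1.95 and 2.3, 0.588 and 1.04 (log2 fold change -0.65, SE 0.36, limma adjusted p = 0.177). Ccrl2, which binds chemerin without signaling, measured 3.16, 3.17 and 4.76 and 5.36, 3.32 and 4.697 (log2 fold change 0.26, SE 0.25, limma adjusted p = 0.434). Ackr4, a scavenger of CCL19 and CCL21, was not tested and measured 0.555, 0.902 and 0.763 in CFA and 0.284, 0.298 and 0.619 in CSA.

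**Figure D2:**
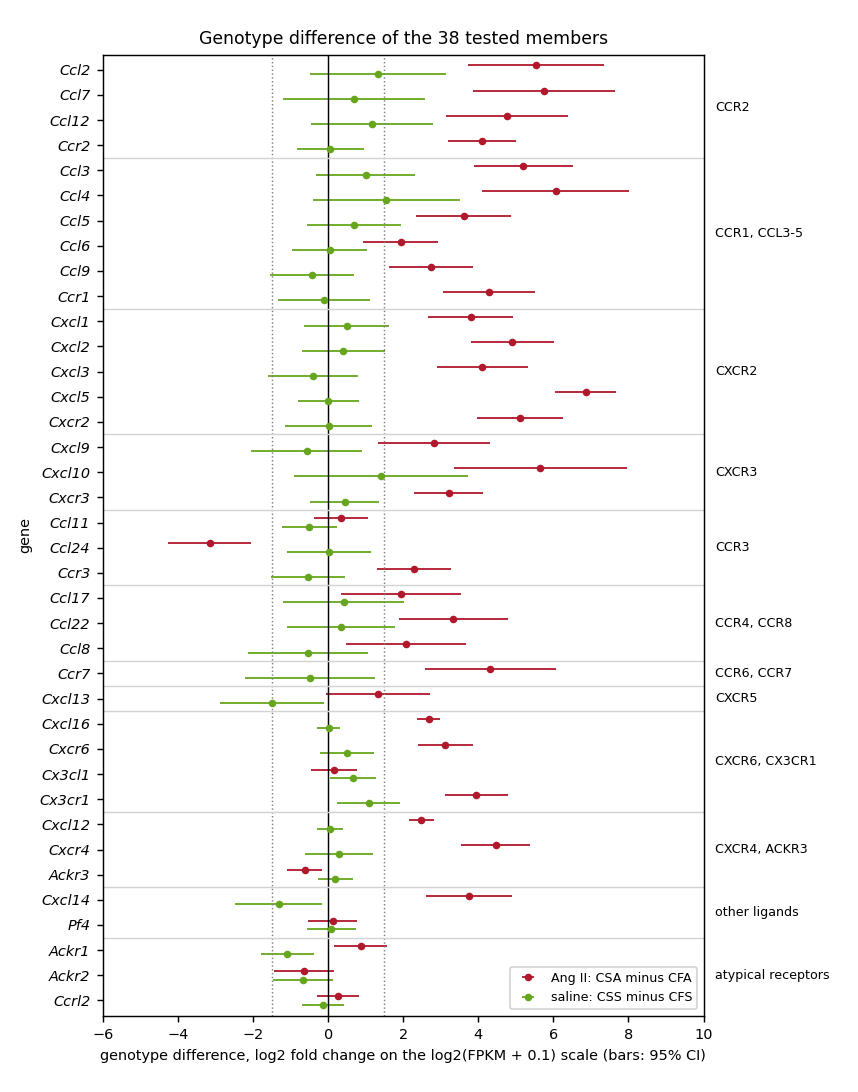
Genotype difference of the 38 tested members, as log2 fold change with its 95% CI (horizontal axis), under Ang II (CSA minus CFA) and under saline (CSS minus CFS), by receptor axis. Dotted lines mark the fold limit of 1.5. Most Ang II intervals lie right of 0 with Ccl24 on the left, and the saline points lie between -1.49 and 1.55.

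The makeup of the ligand pool also differed between the groups. All 27 ligands summed to 112 to 135 FPKM in CFS, 113 to 158 in CSS, 125 to 318 in CFA and 1165 to 1241 in CSA. The CFA sum was 144 in mouse 71, 318 in mouse 72 and 125 in mouse 74, so that mouse 72 was high and still below every CSA mouse. In CFS the largest mean shares of the pool were those of Cxcl12 (23%), Pf4 (18.5%), Ccl6 (10.3%), Ccl8 (9.11%) and Ccl11 (8.19%). In CSA they were those of Cxcl12 (15.6%), Ccl7 (14.3%), Ccl12 (9.93%), Ccl8 (8.94%) and Ccl6 (7.73%), while Pf4 made up 2.67% and Ccl11 0.958%. The 3 CCR2 ligands summed to 4.998 ± 2.92 FPKM in CFS (mean ± SD, n = 3, as for the sums after it), 9.98 ± 6.64 in CSS, 13.2 ± 14.9 in CFA and 364 ± 91.1 in CSA. The CFA mean rests on mouse 72, whose sum was 30.4, whereas mice 71 and 74 had 5.72 and 3.65, within the saline range. The 4 CXCR2 ligands summed to 0.973 ± 0.371, 2.79 ± 1.63 and 86.8 ± 19.8 in CFS, CFA and CSA, and the eotaxins to 12.6 ± 2.88, 10.5 ± 2.32 and 11.7 ± 5.83.

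**Figure D3:**
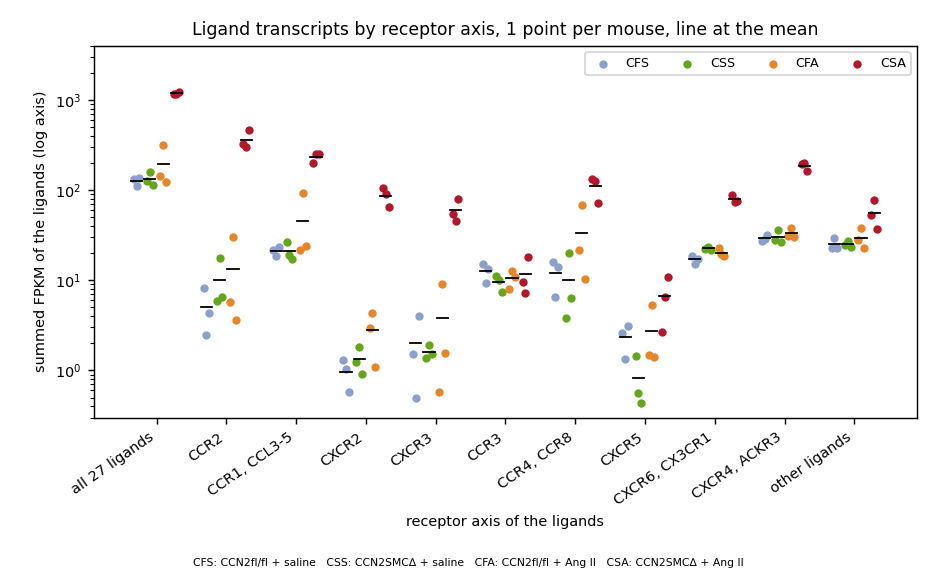
Summed FPKM of the ligands by receptor axis (log axis), 1 point per mouse and a line at the group mean, for the 4 groups. The CCR6 and CCR7 axis is not drawn. The CSA points stand above the others in the CCR2, CXCR2 and CXCR4 axes and overlap them in the CCR3 axis, and 1 CFA mouse, number 72, lies above the other CFA mice in several axes.

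The order of the receptors differed as well. Ackr3 had the highest mean in CFS (16.9 FPKM), CSS (19) and CFA (29.1), followed by Ccrl2 in CFS and CSS and by Ccr2 in CFA. The CFA mean of Ccr2 rests on mouse 72, at 8.31. In CFA mice 71 and 74 Ccr2, at 2.45 and 2.87, was below Ccrl2, at 3.16 and 4.76. In CSA the order was Ccr2 (69.1 ± 14.2), Cxcr4 (48.8 ± 9.05), Ccr1 (42.6 ± 6.55), Cx3cr1 (34.05 ± 6.84), Cxcr2 (24.1 ± 5.62) and Ackr3 (18.4 ± 1.495; FPKM, SD, n = 3). Ccr2 was above Cxcr4 in every CSA mouse. The other neighbours in this order overlapped in their ranges.

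**Figure D4:**
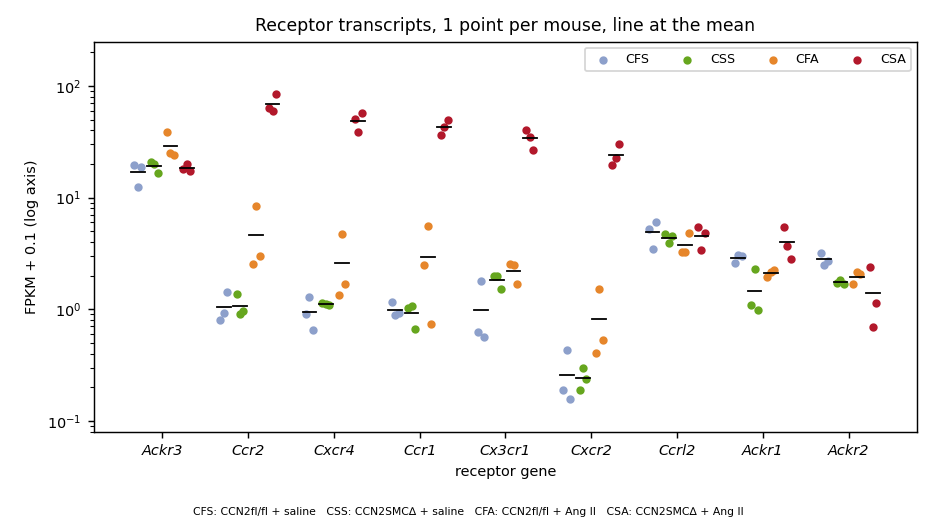
FPKM + 0.1 (log axis) of 9 receptor genes, 1 point per mouse and a line at the group mean. In CSA, Ccr2, Cxcr4, Ccr1, Cx3cr1 and Cxcr2 lie above the other groups, while Ackr3 and Ccrl2 overlap with both saline groups.

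Under saline the genotypes differed far less. No member was upregulated or downregulated in CSS against CFS by limma, where 0.00681% of the tested features were called in each direction. At an unadjusted p under 0.05 there were 5 members of 38, beside 6.3% of the tested features. In 2 members (Cxcr6 and Cx3cl1) every CSS mouse was above every CFS mouse and in 4 (Ccr3, Cxcl14, Ackr1 and Ackr2) below, beside 11.1% and 9.31% of the tested features. Ackr1 had the lowest adjusted p, with 2.503, 2.93 and 2.89 FPKM in CFS and 0.996, 2.19 and 0.883 in CSS (log2 fold change -1.09, SE 0.32, Benjamini-Hochberg adjusted p = 0.487 from limma). The point estimate was largest for Ccl4, which rested on few fragments, at 0.246, 0 and 0 in CFS and 0.245, 0.327 and 0.487 in CSS (log2 fold change 1.55, SE 0.89, limma adjusted p = 0.915). Cxcl13 measured 2.59, 1.35 and 3.08 in CFS and 1.45, 0.563 and 0.4396 in CSS (log2 fold change -1.49, SE 0.63, limma adjusted p = 0.741). Cxcl14 measured 1.599, 1.76 and 2.48 and 0.825, 1.42 and 0.277 (log2 fold change -1.31, SE 0.52, limma adjusted p = 0.689). Cxcl14 was thus lower in every CSS mouse than in any CFS mouse, and Cxcl13 overlapped, and neither passed the test.

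Ang II alone, in CFA against CFS, gave a median log2 fold change of 0.83 over the 38 tested members, beside a median of -0.001 over all tested features, and of 0.18 over the members without CFA mouse 72, the highest CFA mouse in 30 of the 38. No member was called by limma, where 0.0204% of the tested features were upregulated and 0.00681% downregulated, and 9 of the 38 members had an unadjusted p under 0.05, beside 9.42% of the tested features. In 6 members the CFA mice were all above the CFS mice and in 2 all below, beside 9.44% and 10.8% of the tested features. Ccr2 went from 0.696, 0.8303 and 1.33 FPKM in CFS to 2.45, 8.31 and 2.87 in CFA, with no overlap but short of the test (log2 fold change 1.97, SE 0.41, Benjamini-Hochberg adjusted p = 0.107 from limma). Cxcl5, at 0 in CFS, had a log2 fold change of 1.74 (limma adjusted p = 0.11), and in FPKM the CFA mean was at least 2.92-fold higher than the limit of 3 fragments in the CFS libraries. Cxcr2 (1.55, limma adjusted p = 0.348) and Cxcl10 (1.61, 0.721) also had log2 fold changes over 1.5, with mouse 72 far above its group. Without CFA mouse 74 there were 2 upregulated members, Ccr1 (log2 fold change 1.92, limma adjusted p = 0.0282) and Cxcl5 (2.02, 0.0298), and with array weights 3, Ccr2, Cxcl5 and Cx3cr1. Ackr3 measured 19.5, 12.4 and 18.7 in CFS and 38.3, 25.2 and 23.9 in CFA, above every mouse of the other 3 groups (log2 fold change 0.78, SE 0.21, limma adjusted p = 0.216).

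In CCN2SMC∆ mice, Ang II against saline (CSA against CSS) gave 31 upregulated members and 1 downregulated, where 10.9% and 9.36% of the tested features were called, and 19 and 1 among the 26 members that passed the filter outside CSA, beside 5.83% and 10.2%. Without CSA mouse 03 the counts were again 31 and 1. Without a filter 33 and 1 of the 43 were called, beside 7.48% and 4.92%. In 31 tested members every CSA mouse lay above every CSS mouse and in 1 below, beside 26.3% and 29.1% of the tested features. These counts share the CSA mice with those against CFA, so they are not independent of them. With all mice and no setting altered, Cxcl5 had the largest log2 fold change (8.60, limma adjusted p = 1.47e-07), followed by Cxcr2 (6.66), Ccl7 (6.04) and Ccr2 (6.01). The value of Cxcl5 ran from 5.31 to 8.65 over the alternative settings and that of Ccl7 from 5.52 to 6.69, so Cxcl5 did not lead in all. Cxcl3, at 0 in the 3 CSS mice, was at least 67.4-fold higher in CSA. Ccl17, Cxcl13 and Ackr1, short of the test against CFA, were upregulated here, with log2 fold changes of 2.99, 2.83 and 1.504 (limma adjusted p = 0.00597, 0.00356 and 0.00265). Ackr1 was short of the fold limit without CSS mouse 54 (1.35), CSS mouse 56 (1.28) or CSA mouse 01 (1.25), and with a pseudocount of 1 both Ackr1 (1.06) and Ccl17 (1.46) were.

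The interaction, the genotype difference under Ang II minus that under saline, tested whether these differences were unlike. It was called in 28 members, 27 positive and 1 negative, where 7.89% and 7.31% of the tested features were called, and in 16 and 1 of the 26 that passed the filter outside CSA, beside 4.44% and 7.96%. Without a filter the counts were 25 and 1 of 43, beside 4.43% and 3.49%. With all mice and no setting altered, Cxcl5 (6.86), Cxcr2 (5.11), Cxcl14 (5.07) and Ccl7 (5.06) had the largest positive values and Ccl24 the negative one (-3.18). The positive order did not hold in all alternative settings, since Ccl4 reached 6.08, above the highest values of Cxcr2 (5.68) and Cxcl14 (5.77). For Cxcl14, Ackr1 and Ccr3 all CSS mice were below all CFS mice and all CSA mice above all CFA mice. The interaction was 1.95 for Ackr1 (limma adjusted p = 0.00886) and 2.84 for Ccr3 (0.00706). Ccr3 rested on 4, 3 and 1 fragments in the CSS libraries. Ccl6 (1.89, limma adjusted p = 0.0508), Cxcl10 (4.26, 0.0565) and Ccl8 (2.60, 0.0861) did not pass, and each did without CFA mouse 72 (2.57, 5.75 and 3.34). Without single libraries 22 to 30 positive members were called, of which leaving out CFA 72 gave 30 and CSA 03 gave 26, and leaving out both gave 30.

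Many of the genes lie in clusters, in which neighbours did not always move together. On chromosome 11 (GRCm38, 82035571 to 82116799), Ccl2, Ccl7, Ccl11, Ccl12 and Ccl8 follow each other, and Ccl11, which was not called in CSA against CFA (0.35), lies between Ccl7 (5.75) and Ccl12 (4.76). The log2 ratio of Ccl7 to Ccl11 was -2.80 to 0.25 in the CFA mice and 3.64 to 4.24 in the CSA mice, a pair picked after its values were seen. Farther along (83525778 to 83664683), Ccl5, Ccl9, Ccl6, Ccl3 and Ccl4 were all 5 upregulated. On chromosome 5 (90759360 to 90905938), Cxcl5, Cxcl3, Cxcl1 and Cxcl2 were upregulated, and Pf4 (0.12) and Ppbp (-1.02), a platelet chemokine that is no member of the list, lie between Cxcl5 and Cxcl3 and were not called. On chromosome 8 (94745590 to 94812036), Cx3cl1 (0.16) lies between Ccl22 (3.33) and Ccl17 (1.94). On chromosome 9 (123806475 to 124113557), the receptor genes Cxcr6, Ccr1, Ccr3 and Ccr2 were all 4 upregulated, with log2 fold changes from 2.30 to 4.29. Of the neighbours in these clusters, Ccl3, Ccl4, Cxcl5, Cxcl3, Cxcl2, Ccl22, Ccl17, Cxcr6 and Ccr3 passed the filter only through the CSA mice.

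**Figure D5:**
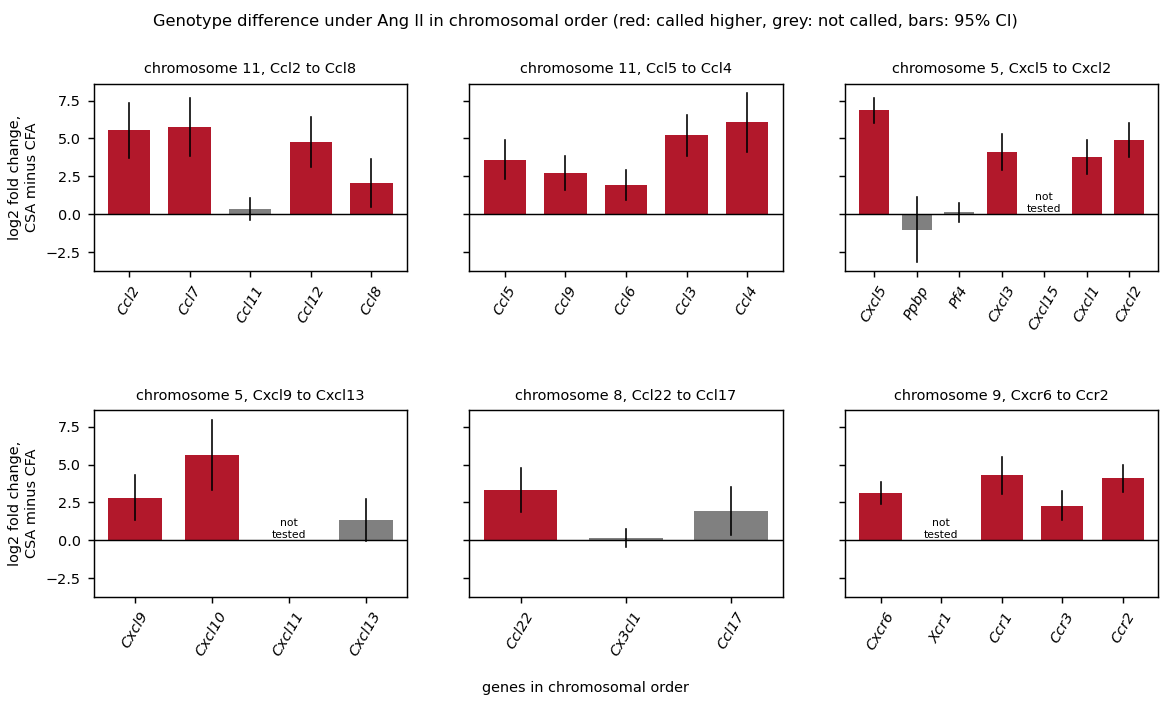
Log2 fold change of CSA minus CFA (bars, with 95% CI) for chemokine and receptor genes in chromosomal order in 6 clusters, red where upregulated and grey where not called. Ccl11, Ppbp, Pf4 and Cx3cl1 stand near or below 0 between neighbours with tall bars. The Cxcl9 cluster is drawn with Cxcl13, which lies 3591 kb away.

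Promoters were read for the 33 of 43 members that matched a RefSeq entry. Ccl24, Ccl5, Cxcr5, Ccr7, Ccl7, Cxcl5, Ccl4, Ccl11, Ccl2 and Cxcl16 were not read. In the 250 bases before the start, on both strands, the NF-κB form given above was found in 10 of the 33 (30.3%), beside 4.94% of all 32851 promoters. The 10 were Ccl19, Ccl20, Ccr3, Ccr6, Ccrl2, Cxcl1, Cxcl10, Cxcl2, Cxcl3 and Cxcl9. The single form GGGAC followed by TTTCC was found in 0 of 33 and in 0.14% of all. The ISRE form was found in 3 (Ccl19, Cxcl10 and Cxcl14), beside 2.98% of all, TTCNNNGAA (a STAT motif) in 3, beside 7.02%, and TGANTCA (AP-1) in 3, beside 6.75%. TATAAA was found in 10, beside 12.4%. The counts of members are of genes, which had 36 distinct promoters between them, whereas the shares of all are of promoters. A match is a run of letters and not a bound site, and the list with the NF-κB form holds both upregulated genes and genes that were not called or not tested (Ccrl2, Ccl19, Ccl20 and Ccr6).

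Other genes of the chemokine system were counted from lists. Of 17 further chemokine and receptor genes, 3 were tested and none was called in CSA against CFA (Ccl27a -1.07, Ppbp -1.02 and Ccr10 -1.69). Of the 14 not tested, 6 had every CSA mouse above every CFA mouse and 1 had every CSA mouse below. No share over all untested features was taken, so nothing is read from these counts. The gene below was Ccl28, at 0.123, 0.175 and 0.127 FPKM in CFA and 0.061, 0.0195 and 0.0943 in CSA. Picked after their values were seen, Cxcr1 measured 0.154, 0 and 0 FPKM in CFA and 1.09, 0.696 and 1.44 in CSA, Cxcl11 0.0242, 0.0124 and 0 and 0.558, 0.348 and 1.43, Ccr9 0.0268, 0.0505 and 0.009195 and 0.509, 0.404 and 0.598, and Ccr8 0, 0.0401 and 0.0401 and 1.63, 1.404 and 0.222. Of the exonic bases of Cxcl11, 41.7% are shared with another gene, and of those of Ccr9, 21.5%. Of 33 genes that carry the signal of the receptors, 33 were tested (3 only through CSA). Of these, 18 were upregulated and 1 downregulated, beside 8.95% and 8.27% of all tested features. Among the 30 that passed outside CSA, 15 were upregulated, beside 4.54%. The median log2 fold change of the 33 was 1.57, beside -0.04 over all tested features. The Rac activator Vav1 (3.81) and the kinase Fgr (3.64) were among the upregulated, and the G protein subunit Gnai1 was downregulated (-1.69). Of 24 cytokines and factors that induce chemokine genes, 20 were tested (2 only through CSA, Il6 among them) and 9 upregulated, beside 8.95% of all tested features, and 7 of the other 18 beside 4.54% of those that passed outside CSA. The 3 of largest change were Il1b (5.60), Irf7 (5.42) and Il6 (5.03). In saline no gene of these lists was called.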

How the data were processed

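RNA was taken from the abdominal aorta of 12 mice and sequenced in paired reads of 150 bases. The authors deposited FPKM per gene, and the submitters' processing notes name HISAT2 2.0.5, StringTie 1.3.3b, featureCounts 1.5.0-p3 and mm10. The deposited values were already scaled by median ratios: over genes above 0 in every library, the median log2 ratio to the mean of the 12 was the same in each, within 7.08e-10. Differences are therefore relative to the typical gene, and the median-of-ratios alternative divides all libraries by 1 common factor. Multiplied by exon length (GENCODE M21, matched for 54495 of the 55092 features), the values fell on whole fragments within 0.05 for 98.0% to 98.5% of values under 100 fragments. These fragments were used for depth and for limits at 0, which cover counting error only.

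Features with at least 1 FPKM in at least 3 libraries were tested on log2(FPKM + 0.1) with limma 3.58.1 in R 4.3.3 (group means over all 12 libraries, empirical Bayes with trend and robust settings, Benjamini-Hochberg adjustment over 14676 features). The study's methods used a test for counts, and limma was taken because the values are FPKM. Single values were compared with two-sided exact permutation tests. In a test on simulated data for CSA against CFA, 194 of 200 genes changed 8-fold were called (97%), with 2 unchanged genes among 13299 tested. The changed genes were drawn only from those with a positive CFS mean of log2(FPKM + 0.1). The 97% therefore does not cover members with a lower level in CFS, such as Cxcl5 and Cxcl3. Alternatives, 24 settings in all, were the pseudocount, the filter, 2 scalings, library weights, fewer groups, the call rule and leaving out each mouse. Leaving out CFA mouse 72 and CSA mouse 03 together was chosen after seeing the data.

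Groups came from the sample labels. Named genes were the 43 members and those of the pathway and marker lists. The members and lists were chosen with earlier results of these data known. Motifs were searched in RefSeq promoters of GRCm38.p6, and tables and plots were made with Python 3.11.15.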

Additional observations from a re-analysis of the deposited data

Results flagged for a closer look

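The genotype difference under Ang II minus that under saline, tested as an interaction with limma, passed an adjusted p of 0.05 and the fold limit of 1.5 in 28 members. Over all tested features, 7.89% were called positive and 7.31% negative. Of the 26 members that passed the filter outside CSA, 16 were called positive and 1 negative, beside 4.44% and 7.96%. The differences between the treatments are given here as log2 values. In the CCR2 axis they were Ccl2 (4.21), Ccl7 (5.06), Ccl12 (3.59) and Ccr2 (4.04). Among CCR1 and the ligands grouped with it they were Ccl3 (4.21), Ccl4 (4.52), Ccl5 (2.92), Ccl9 (3.18) and Ccr1 (4.41). The neutrophil axis gave Cxcl1 (3.30), Cxcl2 (4.50), Cxcl3 (4.52), Cxcl5 (6.86) and Cxcr2 (5.11). The CXCR3 axis gave Cxcl9 (3.40) and Cxcr3 (2.78). Of the CCR3 axis, Ccr3 was positive (2.84) and Ccl24 negative (-3.18), the only negative value of the 28. The T cell and lymphoid genes were Ccl22 (2.99), Ccr7 (4.81) and Cxcl13 (2.82). For the membrane-bound and homeostatic ligands and their receptors the values were Cxcl16 (2.66), Cxcr6 (2.62), Cx3cr1 (2.87), Cxcl12 (2.44) and Cxcr4 (4.16), and the remaining genes were Cxcl14 (5.07) and Ackr1 (1.95).

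Not all of these calls held when single mice were left out. Ccl2, Ccl4, Ccl5, Ccl12, Ccl22, Cxcl9 and Cxcl13 each missed the adjusted p without at least 1 mouse. Ccl12 missed it without CFS mouse 68 or 70, CSS mouse 54 or 56, or CFA mouse 71 or 74 (limma adjusted p = 0.0617 to 0.0671), and Ccl2 without CFS mouse 70 or CSS mouse 54 or 56 (0.052 to 0.0544). Ccl5 missed it without CFS mouse 70 or CFA mouse 71 or 74 (0.0529 to 0.0542), Ccl4 without CFS mouse 68, CSS mouse 54 or CFA mouse 74 (0.0504 to 0.0528), and Cxcl9 without CSS mouse 56 or CFA mouse 71 (0.0563 and 0.0526). Ccl22 missed it without CFS mouse 70, CSS mouse 54 or 56, CFA mouse 71 or 74, or CSA mouse 01 or 02 (0.0649 to 0.0845). Cxcl13 missed it without any of CFS mice 68 and 70, CSS mice 55 and 56, CFA mice 71 and 74 and CSA mice 02 and 03 (0.0663 to 0.0923). With a pseudocount of 1, Ackr1 (1.38), Ccr3 (1.27), Ccl22 (1.45) and Ccl24 (-1.37) were short of the fold limit. With no filter on low values, Ccl12 (limma adjusted p = 0.0502) and Cxcl13 (0.0717) missed the adjusted p.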

How the results depend on the processing

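Of the 29 members called in CSA against CFA, 26 kept their call in every setting that left the call rule as it was and tested them, of 32 in CSA against CSS 29 did, and of 28 in the interaction 18 did. No called member changed sign. No paired analysis was possible because the groups share no mouse numbers. With 3 mice a group, values under about 1 FPKM rest on few fragments.

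No member was called lower (0 in place of 1) in CSA against CFA or in the interaction with a pseudocount of 1, a mean FPKM of at least 5 (which leaves Ccl24 untested) or treat, a test against the fold limit, nor in CSA against CSS with the first pair of these settings. With no fold limit 2 members were called lower in CSA against CFA. With treat, 22 members were called higher in CSA against CFA, 25 in CSA against CSS (and 1 lower) and 9 in the interaction. In CFA against CFS, 3 members were called higher with array weights and 3 by unadjusted p with the fold limit. Leaving out single mice gave 27 to 30 higher members in CSA against CFA, 0 to 2 in CFA against CFS, 30 to 31 in CSA against CSS and 22 to 30 in the interaction. Over all tested features, 1314 higher and 1214 lower in CSA against CFA became 452 and 643 with the mean filter, 574 and 379 with treat, 2864 and 3114 with no fold limit, 683 lower with a pseudocount of 1, and 1210 to 1405 and 1061 to 1336 without single mice. Where a setting tests fewer genes or asks for more, its construction accounts for the lower count, and the other causes were not tested.

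The values that turned in sign were all small and not called. Without single mice, the log2 fold changes in CSA against CFA ran from -0.226 to 0.445 for Pf4 (below 0 without CFA mouse 74 or CSA mouse 02), from -0.132 to 0.493 for Cx3cl1 (below 0 without CSA mouse 01) and from -0.0417 to 0.641 for Ccl11 (below 0 without CSA mouse 03). In CSA against CSS they ran from -0.0625 to 0.608 for Pf4, from -0.144 to 0.021 for Ackr3 and from -0.0995 to 0.238 for Ccrl2. In the interaction they ran from -0.312 to 0.359 for Pf4 and from -0.458 to 0.443 for Ackr2. With array weights the signs turned for Ackr3 (0.0401) and Ccrl2 (-0.111) in CSA against CSS and for Ackr2 in the interaction (-0.0598), and without both CFA mouse 72 and CSA mouse 03 for Ackr3 (0.0076) and Ccrl2 (-0.0055) in CSA against CSS.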
